A study of Mus musculus with 6 samples.

Results

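Interleukin-7 receptor signalling was examined in pro-B cells through 8 genes, chosen by name: the receptor chain genes Il7r, Il2rg and Il2ra, the Janus kinase genes Jak1 and Jak3, the transcription factor genes Stat5a and Stat5b, and Pim1. Each of the 8 names matched 1 of the 54752 gene identifiers in the tables. Pro-B cells are B cell precursors of the bone marrow in which the immunoglobulin heavy chain gene is rearranged. They were sorted by flow cytometry from adult C57BL/6 mice, 1 library per mouse. The 3 control mice had the genotype Skiv2lfl/fl, that is, floxed Skiv2l alleles with no Cre named in the labels, and the 3 Skiv2l-deleted mice, the source of the deleted libraries, had Skiv2lfl/fl together with Cd79a-Cre, a recombinase driven from the B lineage gene Cd79a. The protein made from Skiv2l is an RNA helicase that feeds messenger RNA into the cytosolic exosome, where it is degraded. All 6 mice carried the floxed alleles, and effects of Cre and of the deletion cannot be told apart. Age in weeks, sex and sort markers are not known here. The design text counts mice, so the spread within a group is read as that between mice. Values of 3 libraries are listed in the order 1, 2, 3.

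Interleukin-7 is made by marrow stroma and is a main growth and survival signal of mouse pro-B cells. It binds a receptor of the IL7R alpha chain and the common gamma chain, which Il2rg encodes and which the receptors for several other interleukins share. The kinase JAK1 sits on the alpha chain and JAK3 on the gamma chain. When the chains meet, the kinases phosphorylate STAT5A and STAT5B, which enter the nucleus and switch on genes of survival, of the cell cycle and of feedback, among them the kinase gene Pim1. Il2ra encodes CD25, the alpha chain of the interleukin-2 receptor, which is not part of the interleukin-7 receptor and is a surface marker of pre-B cells, the stage after pro-B.

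Of the 8 genes, 2 rose in Skiv2l-deleted pro-B cells, Il2rg and Jak3, which encode the gamma chain and the kinase bound to it. 1 gene, Il2ra, fell. The other 5, Il7r, Jak1, Stat5a, Stat5b and Pim1, did not pass the test. The groups did not overlap in 5 members, 4 higher (Il2rg, Jak1, Jak3, Stat5a) and 1 lower (Il2ra). Over all tested genes 32.2% did not overlap, 19.9% higher and 12.3% lower. The background was 4.97% of the 13539 tested genes called higher and 3.87% called lower, 8.84% in either direction. The test was limma on log2(FPKM + 1), with genes called at a Benjamini-Hochberg adjusted p below 0.05 over all genes tested. FPKM is the authors' level per length of transcript and per sequenced fragment total. All 8 members passed the filter of 1 FPKM in at least 3 libraries. With so few genes, chosen with earlier results of these data known, the share of members called is a description. Each library is a bulk sample, and markers of B cell stages also differed between the groups, as given below. A shift in the mix of stages and a change per cell therefore cannot be told apart, for Il2rg and Jak3 as for the other genes.

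The windows just before the start sites of the 3 called members, which moved in different directions, are printed so that their sequences can be compared. They come from RefSeq on GRCm38.p6, whose promoter table held all 8 members, and are cut where the GENCODE gene model starts earlier. Each is written 5′ to 3′ on the strand of its gene. Capitals mark CCGGAAG, 1 of the sequences that ETS family factors bind. Other forms of their motif were not searched and are not marked.
Il2rg, chrX:101268256-101268505, minus strand: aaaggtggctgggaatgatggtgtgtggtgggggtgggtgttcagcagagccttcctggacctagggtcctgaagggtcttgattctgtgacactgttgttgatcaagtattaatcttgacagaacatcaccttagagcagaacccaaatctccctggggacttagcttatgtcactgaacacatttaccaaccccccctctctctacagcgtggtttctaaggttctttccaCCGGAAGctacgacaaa
Jak3, chr8:71676133-71676295, plus strand: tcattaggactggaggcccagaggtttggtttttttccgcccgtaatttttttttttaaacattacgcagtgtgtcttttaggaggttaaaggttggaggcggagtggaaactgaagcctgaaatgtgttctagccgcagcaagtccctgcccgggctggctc
Il2ra, chr2:11642542-11642791, plus strand: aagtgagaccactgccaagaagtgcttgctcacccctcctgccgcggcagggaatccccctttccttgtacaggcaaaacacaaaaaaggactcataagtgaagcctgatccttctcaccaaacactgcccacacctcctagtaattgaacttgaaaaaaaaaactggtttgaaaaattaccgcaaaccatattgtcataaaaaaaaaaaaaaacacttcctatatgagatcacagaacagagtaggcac
Searched on both strands in the 250 bases before each RefSeq start, CCGGAAG occurred in 1 of the 8 members, Il2rg, where it begins 17 bases before the start. It occurred in 6.9% of all 32851 windows in the table. The palindromic STAT motif TTCNNNGAA was in 7% of those windows and in 1 of the 8 members, Il7r. That match is shown with its flanks because it is the one STAT-type match in the set, with the motif in capitals.
Il7r, chr15:9530001-9530027, minus strand: ttcaggagcTTCAGGGAAtaccaagat
It begins 142 bases before the RefSeq start and lies inside the longer GENCODE model of Il7r. A match is a run of letters, not a site shown to be bound, and no match says only that the letters are absent from the window searched.

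The members' mean read depth per base, as listed by the authors, was from 4.82 for Il2ra in its shallowest library to 256 for Il7r in its deepest. Skiv2l itself stood at 25.4, 20.2 and 46.3 FPKM across the controls, against 9.53, 16.1 and 10.9 across the deleted libraries, lower in each and not past the threshold (log2 fold change −1.21 ± 0.32 (SE), limma adjusted p = 0.063). All 12 pro-B markers were detected, with a summed level of 2383 to 3492 FPKM over the controls, against 4322 to 5392 over the deleted libraries. Of these markers 7 rose (the list holds Il7r, Rag1 and Rag2), where 4.97% of all tested genes did. Control 3 and Skiv2l-deleted 2 stood apart from the other 4 libraries on the second principal component (33.1% of the variance). They also held 168 and 341 FPKM of the neutrophil granule gene Elane, against 2.02 to 3.95 in the others, and Mpo and Lyz2 were also highest there. The neutrophil genes S100a8 and S100a9 divided the libraries differently. S100a8 was at 129, 153, 100.1 and 207 FPKM in control 2, control 3, Skiv2l-deleted 1 and Skiv2l-deleted 2, but at 2.30 and 1.97 in control 1 and Skiv2l-deleted 3, and S100a9 divided them the same way. The 7 myeloid markers summed to 130 to 1264 FPKM over the controls, against 82.7 to 2244 over the deleted libraries. Without control 3 and Skiv2l-deleted 2, which still leaves 2 libraries high in S100a8, the same 3 members were called, in the same directions: Il2rg (log2 fold change 0.70, limma adjusted p = 0.0196), Jak3 (0.89, 0.0224) and Il2ra (−1.88, 0.022). The background without them was 13% of 12909 genes called. Control 1 and Skiv2l-deleted 3, the pair low in S100a8, S100a9 and Elane, allow no test. They stood at 47.4 and 70.6 FPKM for Il2rg, at 17.04 and 28.5 FPKM for Jak3 and at 23.5 and 6.87 FPKM for Il2ra.

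**Figure D1:**
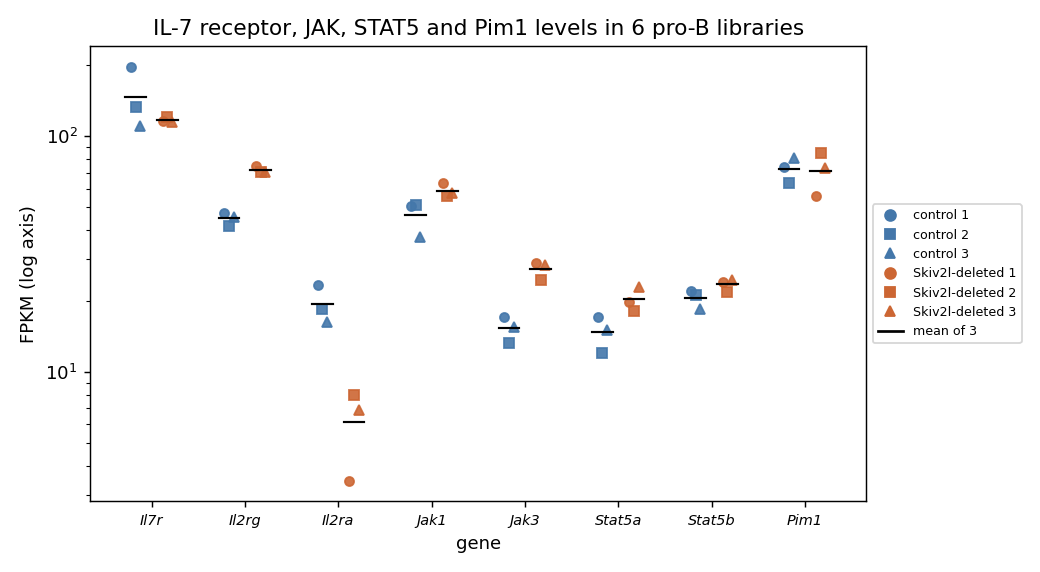
FPKM (log axis) of the 8 genes in each of the 6 libraries, with controls in blue, deleted libraries in orange and a bar at the mean of 3. Il2rg, Jak3, Jak1 and Stat5a were higher in each deleted library than in each control, and Il2ra was lower.

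Il7r, the alpha chain of the interleukin-7 receptor (chromosome 15, 9505788 to 9530176, GRCm38, minus strand), was the most abundant of the 8 in both groups. It stood at 198, 133 and 111 FPKM across the controls, against 116, 120.5 and 115 across the deleted libraries. The groups overlapped, and the spread lay in the controls, with control 1 high. Means were 147 ± 45.2 and 117 ± 2.72 FPKM (SD, n = 3), which gives a log2 fold change of −0.28 ± 0.20 (SE) with a 95% interval of −0.76 to 0.20 (limma adjusted p = 0.453). Without control 1 the log2 fold change was −0.05 (limma adjusted p = 0.874). With weights that limma estimates for each library it was −0.57 and passed (limma adjusted p = 0.031).

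Il2rg, the common gamma chain (chromosome X, 101264378 to 101268255, minus strand), stood at 47.4, 41.6 and 45.4 FPKM across the controls. It reached 74.5, 70.9 and 70.6 FPKM in the deleted libraries, above every control. The mean rose from 44.8 ± 2.99 to 72.0 ± 2.19 FPKM (SD, n = 3), 1.61-fold, with a log2 fold change of 0.67 ± 0.10 (SE, limma adjusted p = 0.0119). The spread within each group was small, at 6.67% of the mean in controls and 3.04% in deleted libraries. The call was lost without Skiv2l-deleted 1 (limma adjusted p = 0.0709) or Skiv2l-deleted 3 (0.0687), at log2 fold changes of 0.65 and 0.69. Gm20489, a protein-coding model on the same strand, overlaps Il2rg and was listed at no more than 0.089 FPKM.

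Il2ra, the CD25 gene (chromosome 2, 11642807 to 11693193, plus strand), stood at 23.5, 18.5 and 16.2 FPKM across the controls, against 3.45, 8.01 and 6.87 across the deleted libraries. Each Skiv2l-deleted value lay below each control value, and Skiv2l-deleted 1 was the lowest. The mean fell from 19.4 ± 3.70 to 6.11 ± 2.37 FPKM (SD, n = 3), 3.18-fold lower, with a log2 fold change of −1.57 ± 0.28 (SE, limma adjusted p = 0.0207). The call was lost without control 1 (0.0766), control 2 (0.0638) or Skiv2l-deleted 3 (limma adjusted p = 0.0687), and when genes of low level were kept in the fit (0.0779). The log2 fold change was between −1.88 and −1.26 over all 18 alternatives.

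Il2ra fell beside other markers of later B cell stages. It is 1 of 8 markers of pre-B and later B cells. Of the 8, 6 were at 1 FPKM or more in every library, and 5 of these fell, against 3.87% of all tested genes. Besides Il2ra they were the adhesion receptor gene Cd2 (log2 fold change −2.24), the inhibitory receptor gene Cd22 (−0.75), the CD20 gene Ms4a1 (−1.199) and the kappa light chain constant gene Igkc (−1.95). Ighd (−0.66) did not pass. The low-affinity IgE receptor gene Fcer2a entered the fit only through the controls, where it was higher (2.16, 1.56 and 2.31 FPKM, against 0.0554, 0.25 and 0.145), and is not counted, and Cr2 was at no more than 0.341 FPKM. Summed, the 8 stood at 1754 to 2436 FPKM over the controls, against 421 to 724 over the deleted libraries, most of it Igkc. In bulk samples, fewer cells of a later stage and less RNA per cell cannot be told apart. T cells can also carry CD25. Their 8 markers summed to 3.55 to 4.03 FPKM over the controls, against 8.38 to 10.5 over the deleted libraries, mostly Thy1, which rose (log2 fold change 1.32). The T cell receptor complex genes Cd3e, Cd3d and Cd3g were at no more than 0.527 FPKM in any library, and Cd3e was listed at 0 in 5 of 6. Among 7 markers of natural killer and innate lymphoid cells (5.29 to 18.9 FPKM over the controls, 13.9 to 44.5 over the deleted libraries), Klrb1c rose (1.65) and Ncr1 was at no more than 0.169 FPKM. The 5 plasma cell markers summed to 271 to 528 FPKM over the controls, against 54.9 to 83.9 over the deleted libraries. The part of these cells in the result for Il2ra was not tested.

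Jak1, the kinase of the alpha chain (chromosome 4, 101152367 to 101265282, minus strand), stood at 50.6, 51.3 and 37.4 FPKM across the controls, against 63.1, 55.8 and 57.6 across the deleted libraries. The groups did not overlap, with control 3 the lowest. The means were 46.5 ± 7.84 and 58.9 ± 3.80 FPKM (SD, n = 3), which gives a log2 fold change of 0.35 ± 0.15 (SE) that did not pass (limma adjusted p = 0.192). It passed under 0 of 18 alternatives.

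Jak3, the kinase of the gamma chain (chromosome 8, 71676296 to 71690575, plus strand), stood at 17.04, 13.3 and 15.6 FPKM across the controls, against 29.1, 24.6 and 28.5 across the deleted libraries. Each deleted library lay above each control. The mean rose from 15.3 ± 1.90 to 27.4 ± 2.43 FPKM (SD, n = 3), 1.79-fold, with a log2 fold change of 0.80 ± 0.13 (SE, limma adjusted p = 0.0163). Without Skiv2l-deleted 1 the call was lost (limma adjusted p = 0.0843, log2 fold change 0.76), and also without Skiv2l-deleted 3 (0.0905, 0.77). Insl3 ends at the same base as Jak3 on the same strand. It was listed at 0.293 to 1.32 FPKM.

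Stat5a and Stat5b are neighbours on chromosome 11, divergent and 8627 bases apart. Stat5a (100859351 to 100885169, plus strand) stood at 17.2, 12.1 and 15.0 FPKM across the controls, against 19.8, 18.1 and 23.0 across the deleted libraries, without overlap. The means were 14.7 ± 2.56 and 20.3 ± 2.48 FPKM (SD, n = 3), which gives a log2 fold change of 0.44 ± 0.16 (SE) that did not pass (limma adjusted p = 0.139). Stat5b (100780731 to 100850724, minus strand) stood at 22.1, 21.3 and 18.4 FPKM across the controls, against 24.2, 21.9 and 24.7 across the deleted libraries. Here the groups overlapped, since Skiv2l-deleted 2 lay below control 1, and the log2 fold change was 0.19 ± 0.12 (SE, limma adjusted p = 0.373). Neither gene passed under any of the 18 alternatives. The pair are close copies: 9.27% of the 75-base windows of Stat5a coding transcripts in GENCODE occur unchanged in those of Stat5b, and 7.08% of those of Stat5b in Stat5a. Reads from such windows could be assigned to either gene. Stat5a also overlaps the end of Stat3, on the other strand.

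Pim1, a serine/threonine kinase that promotes survival and growth and is a classical STAT5 target (chromosome 17, 29490753 to 29496112, plus strand), stood at 74.3, 63.1 and 80.7 FPKM across the controls, against 55.8, 84.6 and 73.3 across the deleted libraries. Skiv2l-deleted 1 was the lowest of the 6 and Skiv2l-deleted 2 the highest. The means were 72.7 ± 8.90 and 71.2 ± 14.5 FPKM (SD, n = 3). The log2 fold change of −0.04 ± 0.17 (SE) had a 95% interval of −0.45 to 0.37 (limma adjusted p = 0.918). The sign turned when control 3 was omitted (0.04) or Skiv2l-deleted 1 was (0.12). Pim1 lies on the same chromosome as Skiv2l, 5.34 Mb from it, and Gm26885, an antisense model that overlaps its start, stood at 0.622 to 1.75 FPKM.

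Ordered by mean FPKM, which is a level per length of transcript, the controls ran Il7r, Pim1, Jak1, Il2rg, Stat5b, Il2ra, Jak3, Stat5a. Neighbours were apart in all 3 controls, with no overlap of their ranges, at 3 steps: Il7r over Pim1, Pim1 over Jak1, and Il2rg over Stat5b. Jak1 and Il2rg overlapped, as did Stat5b, Il2ra, Jak3 and Stat5a, each with the next. In deleted libraries the order was Il7r, Il2rg, Pim1, Jak1, Jak3, Stat5b, Stat5a, Il2ra. Ranges did not overlap between Il7r and Il2rg, between Jak1 and Jak3, or between Stat5a and Il2ra. Il2rg, Pim1 and Jak1 overlapped in sequence, as did Jak3, Stat5b and Stat5a. By mean, Il2rg moved from rank 4 to rank 2 of 8, and Il2ra from rank 6 to rank 8. Rank 2 was close to a tie, at means of 72.0 FPKM for Il2rg and 71.2 FPKM for Pim1. Il2rg was above Pim1 in only 1 of the 3 deleted libraries.

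A ratio between genes of 1 library does not depend on the scaling of that library, and 4 such ratios were compared. The FPKM ratio of Il7r to Il2rg was 4.17, 3.20 and 2.44 across the controls, against 1.56, 1.70 and 1.63 across the deleted libraries. It was lower in each deleted library than in each control, by 0.97 on the log2 scale. The ratio of Jak1 to Jak3 was 2.97, 3.87 and 2.40 across the controls, against 2.17, 2.27 and 2.02 across the deleted libraries, a log2 difference of −0.49, again without overlap. For both ratios the exact two-sided permutation p was 0.1 (3 against 3 cannot give less, and it is 0.133 adjusted over the 4 ratios). In the deleted libraries the gamma chain gene was nearer to the alpha chain gene in level, and the gene of its kinase nearer to Jak1.

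The ratio of Stat5a to Stat5b was 0.777, 0.566 and 0.812 across the controls, against 0.818, 0.828 and 0.932 across the deleted libraries. The groups were separate by a small margin (log2 difference 0.27, exact permutation p = 0.1), and the difference was 0.11 without control 2. Pim1 relative to the sum of Stat5a and Stat5b was 1.89, 1.89 and 2.41 across the controls, against 1.27, 2.11 and 1.54 across the deleted libraries. These groups overlapped (log2 difference −0.36, exact permutation p = 0.3).

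**Figure D2:**
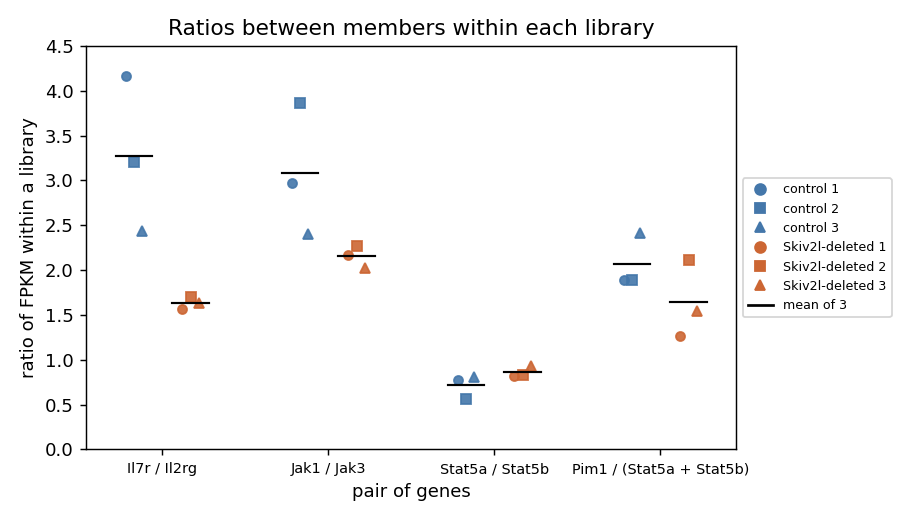
Ratios of FPKM between members within each of the 6 libraries, with a bar at the mean of 3. The Il7r to Il2rg ratio lies between 2.44 and 4.17 in controls (blue) and between 1.56 and 1.70 in deleted libraries (orange).

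Genes that STAT5 is known to switch on, or through which it acts, moved in both directions. All 13 in the list were tested (Socs3 reached 1 FPKM in 1 control only). Of these, 4 rose, 1 fell and 8 did not pass, where 4.97% of all tested genes rose and 3.87% fell. The median log2 fold change was 0.22 with Socs3 counted, beside 0.06 over all genes tested (0.27 over the 8 members). The groups did not overlap in 10 of the 13 (6 higher, 4 lower), against 32.2% of all tested genes. The 6 include Socs3, which passed the filter only through the deleted libraries, where it was higher, and carries no weight here. Without Socs3 the median would lie between the values of Mcl1 (0.03) and Bcl2 (0.22). The feedback genes Cish and Socs2, which encode SH2 domain proteins that bind activated cytokine receptors, were among those that rose. Cish stood at 5.28, 1.197 and 4.59 FPKM across the controls, against 15.3, 12.0 and 20.6 across the deleted libraries. Control 2 was the lowest, and the log2 fold change was 1.96 ± 0.41 (SE, limma adjusted p = 0.032). The Cish call was lost without control 1 or any 1 deleted library (highest limma adjusted p = 0.124). Socs2 stood at 13.1, 9.83 and 11.2 FPKM across the controls, against 31.3, 33.4 and 42.1 across the deleted libraries. Each deleted library held more than any control, with a log2 fold change of 1.56 ± 0.16 (SE, limma adjusted p = 0.00493). Socs2 was called in each of the 6 omissions of 1 library (highest limma adjusted p = 0.0294).

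The cytokine gene Osm, oncostatin M, rose from 2.98 ± 0.561 to 5.44 ± 0.638 FPKM (SD, n = 3), by 0.70 on the log2 scale (limma adjusted p = 0.0402). The cyclin D2 gene Ccnd2 stood at 22.3, 19.6 and 16.6 FPKM across the controls, against 67.6, 32.9 and 44.5 across the deleted libraries, a rise with a wide spread (log2 fold change 1.22 ± 0.26 (SE), limma adjusted p = 0.0328). Bcl2l1, the gene of the survival protein BCL-XL, fell by 0.82 on the log2 scale (limma adjusted p = 0.0176). Osm kept its call only without control 3, and Ccnd2 only without Skiv2l-deleted 2, when 1 library was left out (highest limma adjusted p = 0.175 and 0.114). Bcl2l1 lost its call without control 1 or 2 or Skiv2l-deleted 1 or 2 (highest limma adjusted p = 0.086). Ccnd2 also missed the threshold in TPM (limma adjusted p = 0.0519). Bcl2 stood at 1.40, 1.18 and 1.32 FPKM across the controls, against 1.76, 2.04 and 1.28 across the deleted libraries (log2 fold change 0.22, limma adjusted p = 0.465). Myc stood at 42.7, 36.3 and 53.7 FPKM across the controls, against 76.7, 57.3 and 56.2 across the deleted libraries, higher in each deleted library but not past the threshold (0.51, limma adjusted p = 0.137). Socs1, named here after its values were seen, went the other way from Cish and Socs2, at 4.92, 5.17 and 8.78 FPKM across the controls, against 1.79, 3.38 and 2.28 across the deleted libraries. Its log2 fold change of −1.05 narrowly missed the threshold (limma adjusted p = 0.05005). It passed in TPM (limma adjusted p = 0.0401) and after median-of-ratios scaling (0.0395), and in 0 of the 6 omissions of 1 library (highest 0.182).

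**Figure D3:**
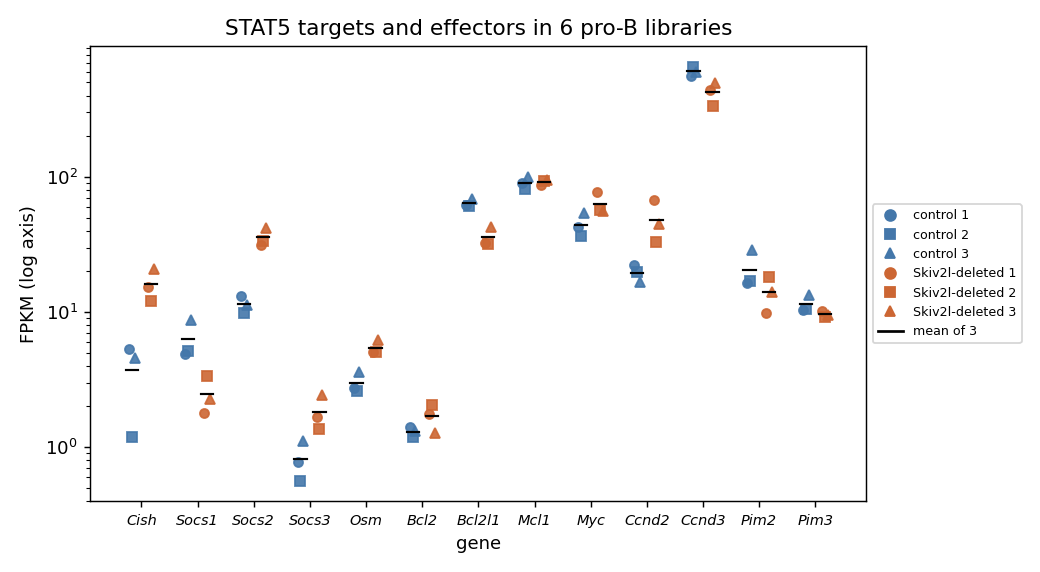
FPKM (log axis) of the 13 STAT5 targets and effectors in each of the 6 libraries, controls in blue, Skiv2l-deleted in orange, bars at the mean of 3. Cish, Socs2, Socs3, Osm, Myc and Ccnd2 are higher in all 3 deleted libraries than in each control, while Socs1, Bcl2l1, Ccnd3 and Pim3 are lower. Socs3 passed the filter only through the deleted libraries.

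**Figure D4:**
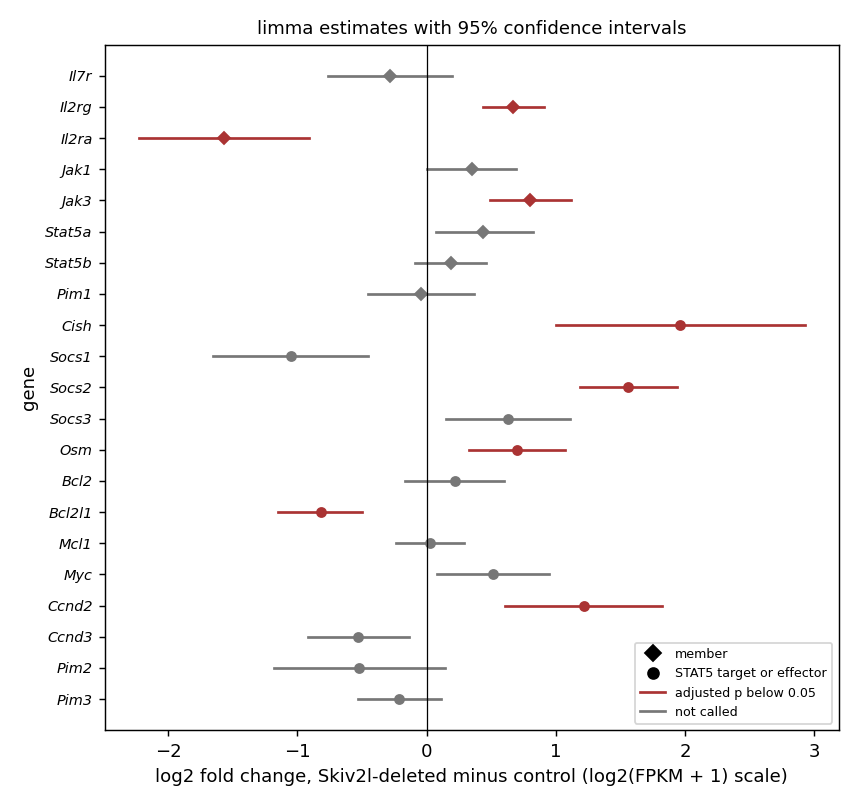
Log2 fold changes (Skiv2l-deleted minus control, log2(FPKM + 1) scale) with 95% confidence intervals from limma for the 8 members (diamonds) and the 13 STAT5 targets and effectors (circles). Red marks an adjusted p below 0.05, which 3 members and 5 of the 13 targets reach.

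Cytokines and receptors that share a chain with the members were mostly low. Of 10 such genes 6 passed the filter, Il9r among them only through the deleted libraries, and 0 were called. Crlf2, the thymic stromal lymphopoietin receptor chain that pairs with IL7R, stood at 21.6, 15.4 and 18.2 FPKM across the controls, against 22.7, 25.9 and 30.3 across the deleted libraries, higher in each but not past the threshold (log2 fold change 0.50, limma adjusted p = 0.109). Il9r, which pairs with the gamma chain and is named here after its values were seen, stood at 0.0967, 0.084 and 0.108 FPKM in the controls. In the deleted libraries it was at 1.18, 10.1 and 3.30 FPKM, with a wide spread. It entered the fit only through the deleted libraries, where it was higher, so its values are given with no test. Il7 itself was at 0.0401 to 0.0992 FPKM in the 6 libraries, and the interleukin-2 receptor beta chain gene Il2rb, the partner of CD25, at 0.0231 to 0.615 FPKM.

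Among the other 7 JAK kinase and STAT genes, only Stat4 rose and 0 fell, where 4.97% and 3.87% of all tested genes did. Their median log2 fold change was 0.27. Stat4, best known for interleukin-12 signalling in T and natural killer cells, stood at 8.44, 7.27 and 9.74 FPKM across the controls, against 21.3, 16.2 and 18.6 across the deleted libraries (log2 fold change 1.05 ± 0.15 (SE), limma adjusted p = 0.0119). Its call was lost without Skiv2l-deleted 1 or 3 (highest limma adjusted p = 0.0617). The natural killer marker Klrb1c also rose, and the part of such cells in the Stat4 result was not tested. The 12 genes listed as phosphatases and other brakes on JAK-STAT signalling gave 0 calls, with a median of −0.18. Lowest in limma adjusted p were Cblb (−0.66, limma adjusted p = 0.0508), Ptpn1 (−0.42, 0.159), Ptpn6 (−0.33, 0.172) and Pias1 (−0.34, 0.183). All 4 had lower means in the deleted libraries and were named after their values were seen. A log2 fold change above 0 was found in 3 of the 12. Of the 12, 3 were called when control 3 and Skiv2l-deleted 2 were both omitted: Cblb, Ptpn1 and Ptprc. Without control 3 alone 3 were called, Cblb, Pias1 and Ptprc. Calls over all genes in these 2 fits were 1683 of 12909 and 1749 of 13336. Ptprc, likewise named after its values were seen, was far from the threshold in the fit as reported (limma adjusted p = 0.547).

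The branch through PI3 kinase, AKT and FOXO, which interleukin-7 also drives, had 2 rises and 1 fall among 11 genes (median 0.06). Calls over all tested genes were 4.97% higher and 3.87% lower. Pik3cd, the delta catalytic subunit, rose from 104 ± 1.73 to 144 ± 9.08 FPKM (SD, n = 3), by 0.46 on the log2 scale (limma adjusted p = 0.0311), and the transcription factor gene Foxo3 rose by 0.49 on the log2 scale (0.0411). Akt1 fell from 147 ± 12.3 to 106 ± 5.80 FPKM (−0.47, limma adjusted p = 0.0416). When 1 library was left out, these 3 calls held only without control 3 (highest limma adjusted p = 0.144 for Pik3cd, 0.187 for Foxo3 and 0.153 for Akt1). In TPM, Foxo3 (0.0706) and Akt1 (limma adjusted p = 0.0872) were not called, nor was Foxo3 after median-of-ratios scaling (0.0545). Foxo1, a transcription factor gene needed for Il7r and Rag transcription in B cell precursors, stood at 28.2, 25.9 and 22.2 FPKM across the controls, against 32.0, 23.6 and 35.4 across the deleted libraries (log2 fold change 0.23, limma adjusted p = 0.462).

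Genes that interleukin-7 signalling is known to restrain were called in both directions. Of 10, 2 rose, 2 fell and 6 did not pass, with a median of −0.43. Over all tested genes 4.97% rose and 3.87% fell. The groups did not overlap in 6 of the 10 (2 higher, 4 lower), against 32.2% of all tested genes. Irf4, named here after its values were seen, was among those lower but not called (log2 fold change −0.80, limma adjusted p = 0.0636). The recombinase genes Rag1 (log2 fold change 0.76, limma adjusted p = 0.0489) and Rag2 (0.46, 0.0401) rose, and the ETS factor gene Spib (−1.35, 0.016) and the cyclin G2 gene Ccng2 (−0.62, limma adjusted p = 0.0363) fell. Bcl6, which STAT5 represses, stood at 6.66, 9.10 and 5.83 FPKM across the controls, against 6.29, 5.86 and 4.66 across the deleted libraries (−0.30, limma adjusted p = 0.379). Rag1, Rag2 and Ccng2 kept their calls only without control 3 (highest limma adjusted p = 0.182, 0.182 and 0.157). Spib lost its call without control 1, control 2 or Skiv2l-deleted 1 (highest limma adjusted p = 0.0737). In TPM, Rag1 (0.0826), Rag2 (0.0629) and Ccng2 (limma adjusted p = 0.055) were not called. Nor were Rag1 and Rag2 after median-of-ratios scaling (limma adjusted p = 0.0652 and 0.0691), or Rag2 when control 3 and Skiv2l-deleted 2 were both omitted (0.0667). Of 12 transcription factor genes known to act on Il7r, which include Foxo1, Ebf1 and Spi1, 0 were called. The smallest values among them were those of Foxp1 (log2 fold change −0.47, limma adjusted p = 0.085), Ikzf1 (−0.63, 0.0986) and Runx1 (0.33, 0.12). They were likewise named after their values were seen.

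The genes most like each member over the 6 libraries were found by Pearson correlation of log2(FPKM + 1). The libraries are shared and the groups differ in the called members, so these values are descriptions. For Il7r they were Zfp341 (r = 0.994), Acbd5 (0.993) and Rnls (0.982). Il2rg was most like Kif17 (r = 0.9995), 1600014C10Rik (0.997) and Hoxa7 (0.997). Jak3 was most like Calhm6 (0.999), Plxnd1 (0.998) and Ntpcr (0.997). For Il2ra they were Myo1e (0.998), 9130023H24Rik (0.995) and Epha2 (0.994). Hoxa7, a homeobox gene, stood at 2.73, 2.22 and 2.38 FPKM across the controls, against 7.32, 6.85 and 6.83 across the deleted libraries. Epha2, a receptor tyrosine kinase gene, fell with Il2ra, from 38.0, 35.8 and 34.2 FPKM to 15.5, 22.4 and 20.0 FPKM (log2 fold change −0.88, limma adjusted p = 0.0176).

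**Figure D5:**
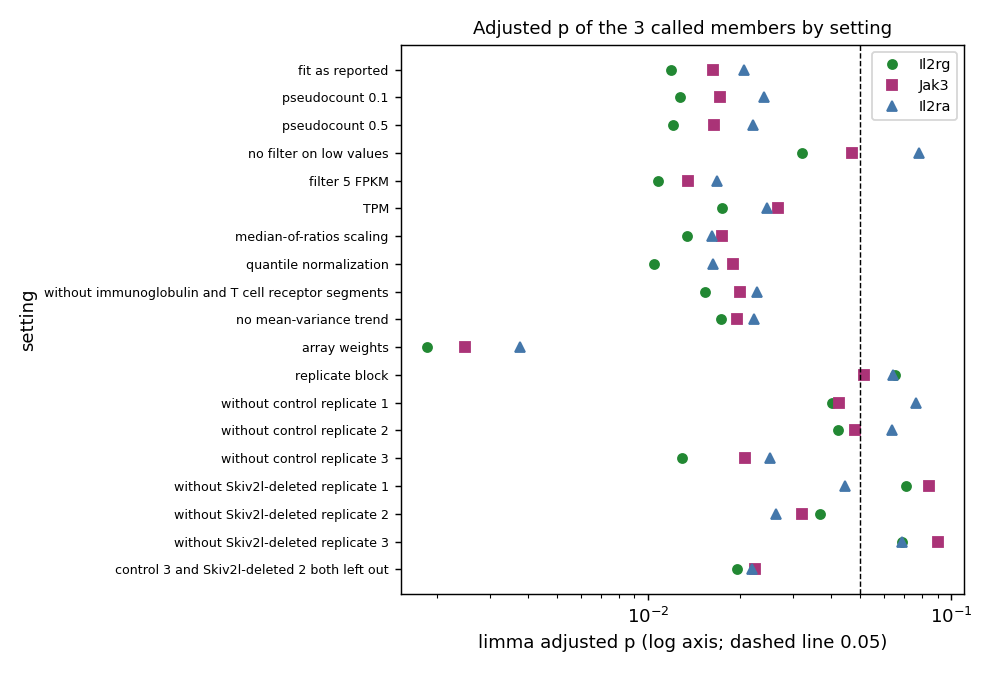
Limma adjusted p (log axis) of Il2rg, Jak3 and Il2ra in the fit as reported and under 18 alternatives, with a dashed line at 0.05. Il2rg and Jak3 lie past the line without Skiv2l-deleted 1 or 3, and Il2ra without control 1, control 2 or Skiv2l-deleted 3 and with no filter. With the replicate block all 3 lie past it.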

How the data were processed

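Messenger RNA was sequenced from sorted pro-B cells of 6 mice, 3 in each group. Strand-specific libraries were made from column-purified RNA, per the labels' protocols. For each library the authors deposited 1 gene table with FPKM, TPM and coverage, the mean read depth per base, per the file headers. Coordinates are on GRCm38, the build in the submitters' processing notes. Aligner, quantifier and strand setting: not given in the sources used here. Overlapping and antisense genes are therefore uncertain. The tables hold no read counts, and the FPKM values were tested on a log scale. Lines of 1 identifier were summed (7 to 9 identifiers per table). Coordinates of the 8 members were identical in GENCODE vM21.

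The 13539 genes that reached 1 FPKM in 3 libraries were fitted with limma 3.58.1 in R 4.3.3 on log2(FPKM + 1), with genotype as the only term and a mean-variance trend. On this scale the fold change of genes near the pseudocount comes out too small. P-values were Benjamini-Hochberg adjusted and called below 0.05. Ratios were compared by exact two-sided permutation. The code of the fit was checked on simulated data with noise drawn independently for each gene and library. Such data lack differences shared by many genes of a library, so the check does not bear on the calls given here. The members and lists were chosen with earlier results of these data known. Named genes are the 8 members, the called genes of each pathway list, Cish, Socs2, Bcl2, Myc, Crlf2, Foxo1, Bcl6 and Skiv2l, and the 3 genes most correlated with Il7r and with each called member. Other genes, markers among them, were named outside this rule, after their values were seen. Of the 18 alternatives, 6 left out 1 library each. The others changed the pseudocount, filter, unit, scaling, weights, trend or block, or left out segments or 2 libraries.

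Other marker lists were read as levels. The value of 1 marker gene is not reported here. The 5 erythroid markers summed to 2.89 to 4.23 FPKM over the controls, against 2.38 to 111 over the deleted libraries. Of the 5 stromal markers 0 were tested, at summed levels of 0.248 to 1.30 FPKM over the controls, against 0.398 to 2.48 over the deleted libraries, with Lepr listed at 0.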

Additional observations from a re-analysis of the deposited data

How the results depend on the processing

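The direction of 7 of the 8 members was the same under all 18 alternatives, and that of Pim1, which was never called, turned without control 3 (0.04) and without Skiv2l-deleted 1 (0.12). Over the omissions of 1 library the log2 fold change was 0.62 to 0.72 for Il2rg, −1.77 to −1.26 for Il2ra, 0.71 to 0.88 for Jak3 and −0.17 to 0.12 for Pim1. The omissions gave 0 to 2 members called higher, 0 to 1 called lower and 179 to 1749 genes called in all, against 1197. The cause of this range was not tested, and each omission also leaves fewer libraries. The highest number, 1749, came without control 3, and the lowest, 179, without Skiv2l-deleted 3. In the same omissions the called genes numbered 0 to 2 among other JAK and STAT genes, 1 to 4 among STAT5 targets, 0 to 3 among brakes on JAK-STAT signalling, 0 to 3 in the PI3K branch, 0 to 6 among restrained genes and 0 to 1 among factors acting on Il7r.

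Deviations of same-numbered libraries from their group means had correlations of 0.0939, −0.428 and −0.355. Whether the numbers pair the mice is not known, and correlations from so few libraries cannot decide it. With the replicate block 365 genes were called, 0 members higher and 0 lower. Il2rg (0.67, limma adjusted p = 0.065), Il2ra (−1.57, 0.0642) and Jak3 (0.80, 0.0513) missed the threshold, and the PI3K branch and restrained genes gave 0 calls each. No library correlated best with its own number: control 1 did with Skiv2l-deleted 3 (0.413), control 2 with Skiv2l-deleted 1 (0.488) and control 3 with Skiv2l-deleted 2 (0.557).

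With array weights 3449 genes were called, Il7r (−0.57) passed, 2 members were lower, and the lists of shared receptors, other JAK and STAT genes, STAT5 targets, brakes, PI3K branch and factors acting on Il7r gave 1, 2, 8, 5, 5 and 2 calls. With no filter on low values, where more genes are tested, 512 genes were called, Il2ra (−1.57) missed the threshold, which left 0 members lower, and STAT5 targets, PI3K branch and restrained genes gave 1, 1 and 0 calls. Among shared receptors 1 gene was called with a pseudocount of 0.1 or 0.5 or in TPM. It was Il9r, which entered the fit only through the deleted libraries, so these calls are not read as a result. The brakes gave 1 call with a filter of 5 FPKM, with median-of-ratios scaling and with quantile normalization, and 3 when control 3 and Skiv2l-deleted 2 were both omitted, where factors acting on Il7r gave 2. In that last fit 13% of 12909 genes were called. The PI3K branch gave 1 call in TPM and with quantile normalization. Restrained genes gave 1 call in TPM, 2 with median-of-ratios scaling and 2 with no mean-variance trend. The log2 ratios, recomputed in TPM, with the replicate block, with each library omitted and with both control 3 and Skiv2l-deleted 2 omitted, kept their direction. Depth limits the values of shallow genes, whose lowest mean depth per base was 4.82 for Il2ra, 1.83 for Socs2 and 1.07 for Cish.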
